A study of Homo sapiens with 12 samples.

Results

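The 8 genes described here carry out and answer the activation of the sterol regulatory element-binding proteins (SREBPs). They are MBTPS2, MBTPS1, SCAP, SREBF1, SREBF2, INSIG1, HMGCS1 and SQLE, measured by 20 of the 40920 probe sets that name 1 gene, or 8 of 19774 genes. They were chosen by measured values: earlier results of these arrays, in the change from the control of the same line and in both miR-200 clusters against single clusters. In those contrasts their values are therefore given as a description, with no test.

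SREBPs are transcription factors made as precursors in the membrane of the endoplasmic reticulum. When sterols are low, SCAP escorts them to the Golgi, where the site-1 protease (MBTPS1) and then the site-2 protease (MBTPS2) cut them and free the active part. When sterols are high, INSIG proteins hold SCAP back. The active part binds sterol regulatory elements, often with the factor NF-Y, and raises genes of cholesterol and fatty acid synthesis, among them INSIG1 and SREBF2 themselves. Intestinal epithelium makes much cholesterol of its own.

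The study hybridised RNA of MDST8, NCI-H716 and HUTU-80 to 12 Affymetrix U133 Plus arrays. These established cell lines are labelled as colorectal cancer, with methylation at the miR-200 loci. Lentivirus carried the cluster of miR-200c and miR-141 (miR-200c141), the cluster of miR-200b, miR-200a and miR-429 (miR-200ba429), or, in MDST8 and NCI-H716, both by a later addition of the miR-200c141 virus to miR-200ba429 cells. There were 2 arrays with both clusters, 4 with miR-200c141 (2 of them HUTU-80, with titles ending in 1:3 and 1:5, a ratio that is not explained), 3 with miR-200ba429 and 3 controls, 1 per line. The sources used here do not state what the control cells were given, and SW620, which the protocol also names, was not analysed here. Sorting for fluorescence of all transduced cells took place at 48 hours, the additional virus followed 24 hours after the sort, and RNA was taken on day 7.

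The values are log2 intensities, so a difference of −1 is a halving of signal. The HUTU-80 pair with miR-200c141 was averaged for every fit, which leaves 11 samples. HUTU-80 has no array with both clusters. Line and construct are fitted together, so its single-cluster differences still move the fitted changes with both clusters. Those fitted changes therefore need not equal the mean of the differences in MDST8 and NCI-H716. The labels leave out whether separate cultures were used, so errors and p-values measure only the spread between these samples. Each line has a single control array, whose own error enters every difference of that line. The RNA is from bulk cells, where fewer expressing cells and less RNA per cell cannot be told apart. The highest of 23 nonspecific control probe sets stood at 5.43, used here as the background level.

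The labelled tissue was checked on the control arrays. Of 8 intestinal epithelial markers, 6 were above background in NCI-H716, 0 in MDST8 and 0 in HUTU-80. Of 3 immune and 3 endothelial markers measured, 0 were above background in any control. ZEB1, a known target of the miR-200 family, was lower than the control on all 9 construct arrays, with a difference of −2.24 (MDST8) and −1.81 (NCI-H716) with both clusters. The smallest difference, −0.13, belonged to MDST8 with miR-200ba429. The arrays with both clusters also had the widest gap between the 3′ and 5′ control probe sets of ACTB in their line, a sign of RNA quality or labelling. The gap was 2.02 in MDST8 with both clusters, against at most 1.54 on the other MDST8 arrays, and 2.63 in NCI-H716 with both clusters, against at most 2.40 on the others. Its part in the results for both clusters was not tested.

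The mature microRNAs are shown because they define what the constructs share. Sequences are from RefSeq, build GRCh38.p14, plus strand, written 5′ to 3′ with the seed (bases 2 to 8) in capitals.
hsa-miR-200c-3p: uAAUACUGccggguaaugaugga
hsa-miR-141-3p: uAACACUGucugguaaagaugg
hsa-miR-200b-3p: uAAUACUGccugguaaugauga
hsa-miR-200a-3p: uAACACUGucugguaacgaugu
hsa-miR-429: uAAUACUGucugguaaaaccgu
The first pair lies at chr12:6963742-6963764 and chr12:6964155-6964176. The miR-200ba429 microRNAs lie at chr1:1167160-1167181, chr1:1167916-1167937 and chr1:1169055-1169076. The seed AAUACUG is shared by 3 of them (miR-200c, miR-200b and miR-429) and AACACUG by 2 (miR-141 and miR-200a), so each cluster holds both seeds, which differ only at position 4.

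MBTPS2, the site-2 protease, was the member with the largest difference with both clusters, by the probe set of highest mean of each gene. A dimmer probe set of INSIG1, given below, differed by −2.35 in MDST8. The MBTPS2 probe set 226760_PM_at stood at 8.32 in MDST8 with both clusters, at 10.03 with miR-200c141 and at 10.26 with miR-200ba429, against 10.34 in the MDST8 control. In NCI-H716 it stood at 8.08 with both clusters, 9.55 with miR-200c141 and 10.02 with miR-200ba429, against 10.56 in the control. In HUTU-80, which has no array with both clusters, it stood at 9.78 and 9.67 with miR-200c141 and 9.89 with miR-200ba429, against 9.94 in the control. All 9 construct arrays were lower than the control of their line, and the 2 arrays with both clusters lay below all 10 others. The signal with both clusters was 4.05 times lower than the control in MDST8 and 5.59 times lower in NCI-H716. The fitted log2 change was −2.17 ± 0.15 (SE, 2 samples with both clusters against 3 controls).

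The other 2 MBTPS2 probe sets were below background on all 12 arrays, so their differences have no reading. Probe set 206473_PM_at ranged between 3.31 and 4.33 and was at 3.31 and 3.86 with both clusters, against 4.33 and 3.68 in the controls of MDST8 and NCI-H716. Probe set 1554604_PM_at ranged between 2.62 and 3.23 and was at 2.62 and 3.12 with both clusters, against 3.00 and 2.90 in those controls. The values of MBTPS2 below therefore come from 226760_PM_at alone.

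**Figure D1:**
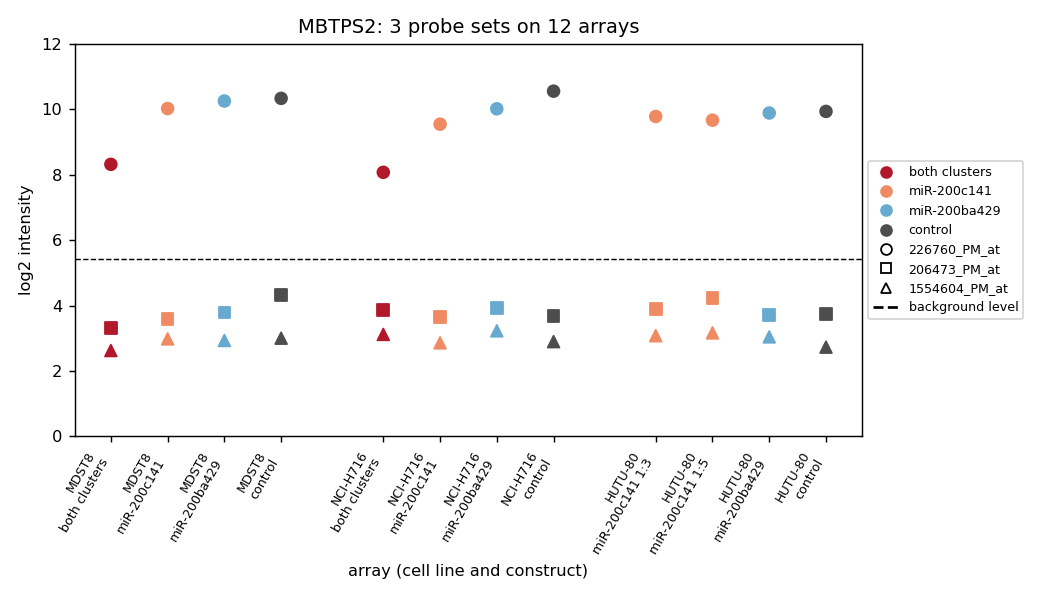
Log2 intensity of the 3 MBTPS2 probe sets (symbols) on each of the 12 arrays (horizontal axis, by cell line and construct), with the background level of 5.43 as a dashed line. Only 226760_PM_at lies above background, and its 2 lowest points, 8.32 and 8.08, are the arrays with both clusters.

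The single clusters gave smaller differences of MBTPS2. The fitted log2 change was −0.51 ± 0.13 with miR-200c141 and −0.22 ± 0.13 with miR-200ba429 (SE, 3 samples against 3 controls each). NCI-H716 with miR-200c141, at a difference of −1.01, was the single-cluster array farthest from its control. Both clusters minus the mean of the single clusters was −1.82 in MDST8, which is 3.53 times lower, and −1.71 in NCI-H716, or 3.26 times lower, with a fitted difference of −1.80 ± 0.14. In MDST8 the difference with both clusters, −2.02, was larger than the sum of the single-cluster differences, −0.39. In NCI-H716 the difference was −2.48, against a sum of −1.55. The sums use the same control array 2 times, so an error of that array weighs more in them. The probe set mean of MBTPS2, which takes in the 2 dim probe sets, gave −0.84 for both clusters against control.

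MBTPS1, the site-1 protease, and SCAP, the escort, showed small differences on every array. MBTPS1 (201620_PM_at) stood at 7.06 and 7.05 with both clusters, against 6.90 and 6.93 in the controls of MDST8 and NCI-H716, and its 9 differences from control lay between −0.20 and 0.17. Its fitted change with both clusters was 0.14 ± 0.17. Probe set 217543_PM_s_at of MBTPS1 was below background throughout. SCAP (212329_PM_at) stood at 7.90 and 7.80 with both clusters, against 7.78 and 7.67 in the controls. The differences of SCAP lay between −0.36 (HUTU-80 with miR-200ba429) and 0.13, with a fitted change of 0.08 ± 0.15. These 2 members of the activation step therefore did not share the low values of MBTPS2.

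SREBF1, which encodes SREBP-1, stood at 6.40 in MDST8 with both clusters, 7.27 with miR-200c141 and 6.98 with miR-200ba429, against 7.17 in the control (202308_PM_at). In NCI-H716 it stood at 7.46 with both clusters, 8.70 with miR-200c141 and 8.09 with miR-200ba429, against 8.93 in the control. In HUTU-80 it stood at 7.69 and 8.02 with miR-200c141 and 7.20 with miR-200ba429, against 8.18 in the control. It was lower on 8 of 9 construct arrays, and both clusters gave the lowest value of each line that had them. Fitted changes were −1.20 ± 0.19 with both clusters, −0.15 ± 0.17 with miR-200c141 and −0.67 ± 0.17 with miR-200ba429. With both clusters SREBF1 differed by −0.77 in MDST8, against a sum of single-cluster differences of −0.08, and by −1.47 in NCI-H716, against −1.06. Without NCI-H716 the fitted change with both clusters was −0.98. The other probe set, 1558875_PM_at, was below background on all 12 arrays.

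SREBF2, which encodes SREBP-2, the member best known for cholesterol synthesis, stood at 5.97 in MDST8 with both clusters, 6.44 with miR-200c141 and 6.37 with miR-200ba429, against 6.63 in the control (201247_PM_at). In NCI-H716 it stood at 5.97 with both clusters, 6.05 with miR-200c141 and 6.36 with miR-200ba429, against 6.48 in the control. In HUTU-80 it stood at 6.42 and 6.42 with miR-200c141 and 6.26 with miR-200ba429, against 6.89 in the control. All 9 construct arrays were lower, and no difference was larger than 0.66 in size. Fitted changes were −0.65 ± 0.20 with both clusters, −0.36 ± 0.17 with miR-200c141 and −0.33 ± 0.17 with miR-200ba429. The dimmer probe sets of SREBF2, above background on 7 and 4 arrays, did not follow it in NCI-H716: 201248_PM_s_at stood at 5.11 with both clusters, against 4.94 in the control, and 242748_PM_at at 5.48, against 5.16. Nor did they with the single clusters in MDST8. There 201248_PM_s_at stood at 5.78 with miR-200c141 and 5.76 with miR-200ba429, against 5.67 in the control, and at 4.68 with both clusters. For 242748_PM_at these values were 5.15 and 5.48, against 4.76, and 4.58 with both clusters.

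**Figure D2:**
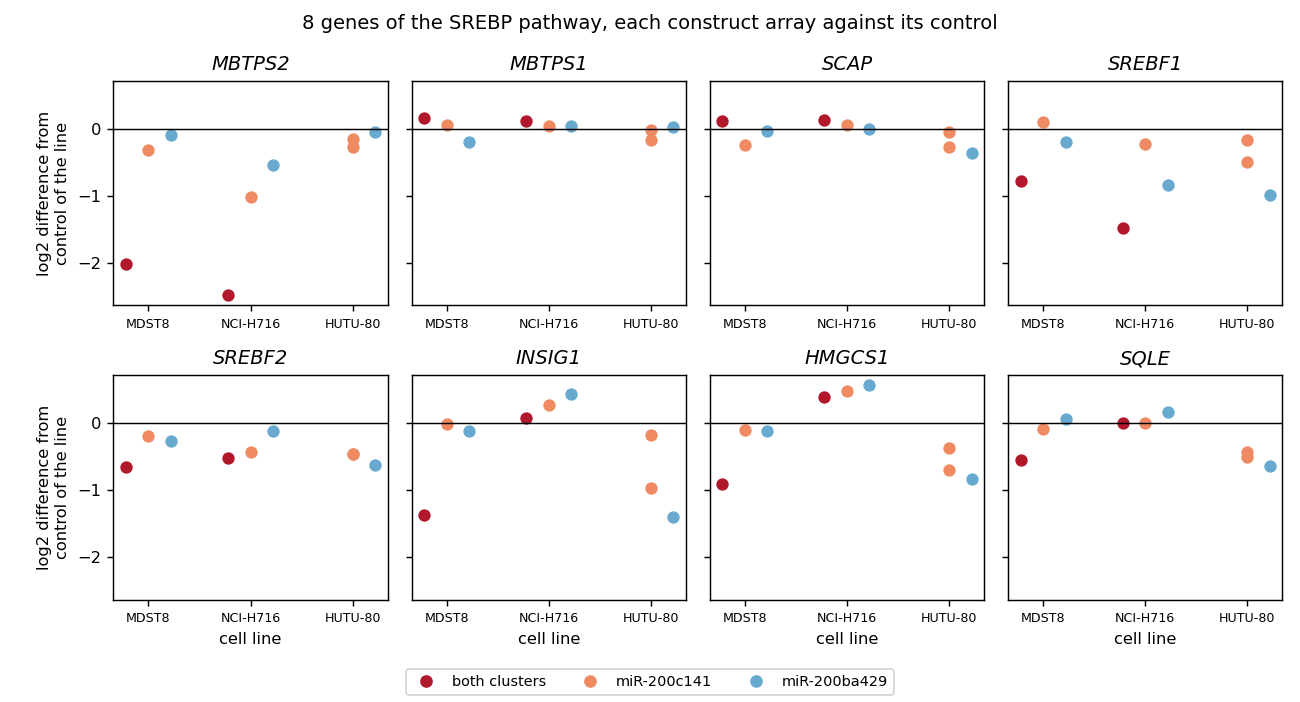
Log2 difference of each construct array from the control of its line (vertical axis) for the 8 genes (panels), by cell line (horizontal axis) and construct (colour). Each gene is shown by its probe set of highest mean. MBTPS2 reaches −2.02 and −2.48 with both clusters, MBTPS1 and SCAP stay between −0.36 and 0.17, and HMGCS1 and INSIG1 lie above 0 on all 3 NCI-H716 arrays and below 0 on all 3 HUTU-80 arrays.

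INSIG1, which holds SCAP back and is a known SREBP target, had differences of either sign. In MDST8 it stood at 9.63 with both clusters, 10.98 with miR-200c141 and 10.88 with miR-200ba429, against 11 in the control (201626_PM_at). In NCI-H716 it stood at 10.17 with both clusters, 10.37 with miR-200c141 and 10.54 with miR-200ba429, against 10.10 in the control. In HUTU-80 it stood at 8.69 and 9.48 with miR-200c141 and 8.25 with miR-200ba429, against 9.66 in the control. The differences were negative on all 3 HUTU-80 and all 3 MDST8 arrays and positive on all 3 NCI-H716 arrays. The dimmer INSIG1 probe sets agreed for MDST8 and turned the sign for NCI-H716 with both clusters: 201625_PM_s_at differed by −2.35 in MDST8 and −0.60 in NCI-H716, and 201627_PM_s_at by −1.77 and −0.27. The fitted change of 201626_PM_at with both clusters was −0.90 ± 0.35, and that of 201625_PM_s_at −1.76 ± 0.41. On the arrays themselves 201626_PM_at differed by −1.37 in MDST8 and 0.08 in NCI-H716, and the fit also draws on HUTU-80.

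HMGCS1, which makes HMG-CoA for the mevalonate pathway, followed the same division. It stood at 8.24 in MDST8 with both clusters, 9.04 with miR-200c141 and 9.03 with miR-200ba429, against 9.15 in the control (221750_PM_at). In NCI-H716 it stood at 8.89 with both clusters, 8.97 with miR-200c141 and 9.06 with miR-200ba429, against 8.50 in the control. In HUTU-80 it stood at 8.45 and 8.79 with miR-200c141 and 8.33 with miR-200ba429, against 9.16 in the control. On this probe set all 3 arrays of HUTU-80 and of MDST8 were lower than their control and all 3 of NCI-H716 were higher. Probe set 205822_PM_s_at of HMGCS1, above background on all 12 arrays, differed by −1.85 in MDST8 with both clusters and by 0.59 in NCI-H716 with both clusters. It turned the sign for the MDST8 single clusters, at 7.79 with miR-200c141 and 7.80 with miR-200ba429, against 7.63 in the control. The fitted change of 221750_PM_at with both clusters was −0.45 ± 0.28 (SE). Its array differences were −0.91 in MDST8 and 0.39 in NCI-H716, and HUTU-80 enters this fit too.

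SQLE, the squalene epoxidase, stood at 9.59 in MDST8 with both clusters, 10.05 with miR-200c141 and 10.19 with miR-200ba429, against 10.14 in the control (209218_PM_at). In NCI-H716 all 4 arrays lay between 12.92 and 13.08. In HUTU-80 it stood at 9.59 and 9.65 with miR-200c141 and 9.44 with miR-200ba429, against 10.09 in the control. SQLE was thus lower in HUTU-80 with each construct and in MDST8 with both clusters, and level in NCI-H716. With both clusters, probe set 213577_PM_at differed by −0.65 in MDST8 and stood at 12.54 in NCI-H716, against 12.54 in its control. The dimmer 213562_PM_s_at differed by 0.01 in NCI-H716 and lay under the background level in MDST8 with both clusters. Probe set 1557352_PM_at was above background in NCI-H716 only. The fitted change of 209218_PM_at with both clusters was −0.40 ± 0.17, which also draws on HUTU-80. Its array differences were −0.54 in MDST8 and 0.003 in NCI-H716.

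The opposite signs of HUTU-80 and NCI-H716 for HMGCS1 and INSIG1 are given as values on these arrays, with no test, since the members were chosen on these changes. In NCI-H716 they all rest on 1 control array, the lowest of its line for both genes.

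The call in the fit across all genes, an adjusted p under 0.05 after Benjamini-Hochberg correction, was met with both clusters against control by 2 of 8 members, MBTPS2 and SREBF1, both lower (3.81% of all genes fell and 2.33% rose). Of the 20 member probe sets, 3 met it, all lower (3.26% of all probe sets fell). In both against single clusters 2 of 8 members met it, MBTPS2 and SREBF1, both lower (1.39% of all genes fell and 0.273% rose), and 2 of 20 probe sets (1.30% of all probe sets fell). In the fits that left out 1 line or sample, the SREBF1 change lay between −1.51 and −0.98 against control. Against single clusters it lay between −0.98 and −0.61, and the call was lost in most of these fits. Since the members were chosen on these contrasts, these counts are no test of them, and nothing is read from the counts. With any construct, miR-200c141 or miR-200ba429 against control, 0 members and 0% of all genes met it. At an unadjusted p under 0.05 these limma fits gave 1851 genes with any construct, 1302 with miR-200c141 and 1214 with miR-200ba429.

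**Figure D3:**
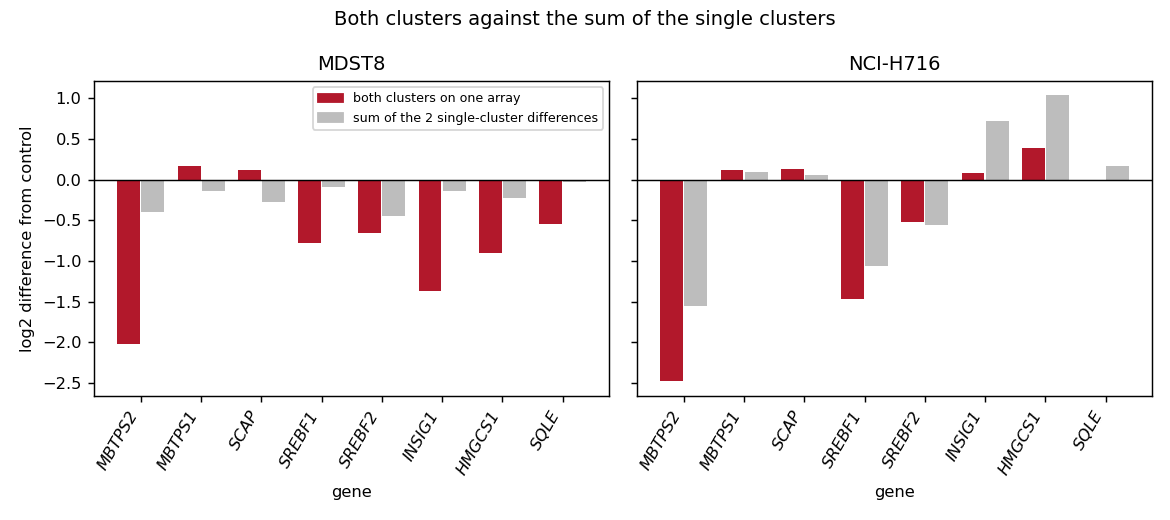
Log2 difference from control with both clusters on 1 array (red) beside the sum of the miR-200c141 and miR-200ba429 differences (grey) for the 8 genes, in MDST8 and NCI-H716. The red bar of MBTPS2 reaches below the grey one in both lines, −2.02 against −0.39 and −2.48 against −1.55, while in NCI-H716 HMGCS1 has 0.39 against a sum of 1.04.

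The other members set against their sums differed between the 2 lines. In MDST8, INSIG1 differed by −1.37 with both clusters, against a sum of −0.14, HMGCS1 by −0.91, against −0.22, and SQLE by −0.54, against −0.03. In NCI-H716 the differences with both clusters were nearer to 0 than the sums: 0.08 against 0.72 for INSIG1 and 0.39 against 1.04 for HMGCS1. SREBF2 differed by −0.66, against −0.45, in MDST8 and by −0.52, against −0.56, in NCI-H716.

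The single clusters were compared with each other, a contrast not used to choose the members. Between miR-200c141 and miR-200ba429, 0 of 8 members and 0% of all genes passed, with 705 genes at an unadjusted p under 0.05. The log2 difference, miR-200c141 minus miR-200ba429, was 0.52 ± 0.17 for SREBF1 and −0.29 ± 0.13 for MBTPS2 (SE, 3 samples each, limma, adjusted p = 1.00 for each). For the other 6 members it lay between −0.04 and 0.26. SREBF1 was higher with miR-200c141 in all 3 lines and MBTPS2 lower, with the HUTU-80 pair averaged.

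Levels between lines were not used to choose the members either and were tested with construct as a term, by a moderated F in limma. It passed for 4 of 8 members, against 62.1% of all genes, so the share of members was not above that of all genes. SQLE had the widest spread. Its mean was 12.96 ± 0.08 in NCI-H716 (SD, n = 4), 9.99 ± 0.27 in MDST8 (n = 4) and 9.71 ± 0.33 in HUTU-80 (n = 3). NCI-H716 exceeded HUTU-80 by 3.32 ± 0.14 and MDST8 by 2.97 ± 0.12, or 7.82-fold (SE, F adjusted p = 2.0e-09), while MDST8 and HUTU-80 did not differ past the threshold (0.35 ± 0.14, limma adjusted p = 0.0612).

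SREBF1 averaged 8.29 ± 0.66 in NCI-H716, 6.95 ± 0.39 in MDST8 and 7.74 ± 0.50 in HUTU-80, with all 3 pairs past the threshold (F adjusted p = 2.1e-05 in limma). NCI-H716 exceeded HUTU-80 by 0.78 ± 0.16 and MDST8 by 1.34 ± 0.14, and MDST8 minus HUTU-80 was −0.55 ± 0.16. INSIG1 averaged 10.30 ± 0.20 in NCI-H716, 10.62 ± 0.66 in MDST8 and 9.0 ± 0.71 in HUTU-80 (F adjusted p = 0.000472 in limma). INSIG1 in NCI-H716 exceeded HUTU-80 by 1.48 ± 0.29 and in MDST8 by 1.81 ± 0.29, and NCI-H716 and MDST8 did not differ past the threshold (−0.33 ± 0.26). Without HUTU-80 the INSIG1 test gave an adjusted p of 0.207. The other members differed less.

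SCAP was lower in NCI-H716 and in MDST8 than in HUTU-80, by −0.39 ± 0.13 and −0.36 ± 0.13 (F adjusted p = 0.0356 in limma). That SCAP call was lost in 8 of 14 fits that left out 1 line or sample. Without HUTU-80 its adjusted p was 0.888, without NCI-H716 0.0596, without the HUTU-80 control 0.210 and without HUTU-80 miR-200c141 0.184. Without the controls of MDST8 and NCI-H716 it was 0.0582 and 0.0738, and without MDST8 miR-200c141 and NCI-H716 miR-200ba429 it was 0.0581 and 0.0588. MBTPS2 did not pass (F adjusted p = 0.0730 in limma), with MDST8 minus HUTU-80 at 0.36 ± 0.13, but did at 0.00992 without NCI-H716, 0.00810 without its control and 0.0343 without its miR-200c141 array. MBTPS1 averaged 6.99, 6.90 and 7.18 in NCI-H716, MDST8 and HUTU-80, SREBF2 averaged 6.21, 6.35 and 6.52, and HMGCS1 averaged 8.86, 8.87 and 8.70. None of these 3 passed, with F adjusted p of 0.169, 0.541 and 0.565 in limma, and HMGCS1 passed only without the NCI-H716 control (0.0496). By pairs of lines, 4 of 8 members passed for MDST8 minus HUTU-80 (43.3% of all genes), 4 for NCI-H716 minus HUTU-80 (45.6%) and 2 for NCI-H716 minus MDST8 (51.7%).

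**Figure D4:**
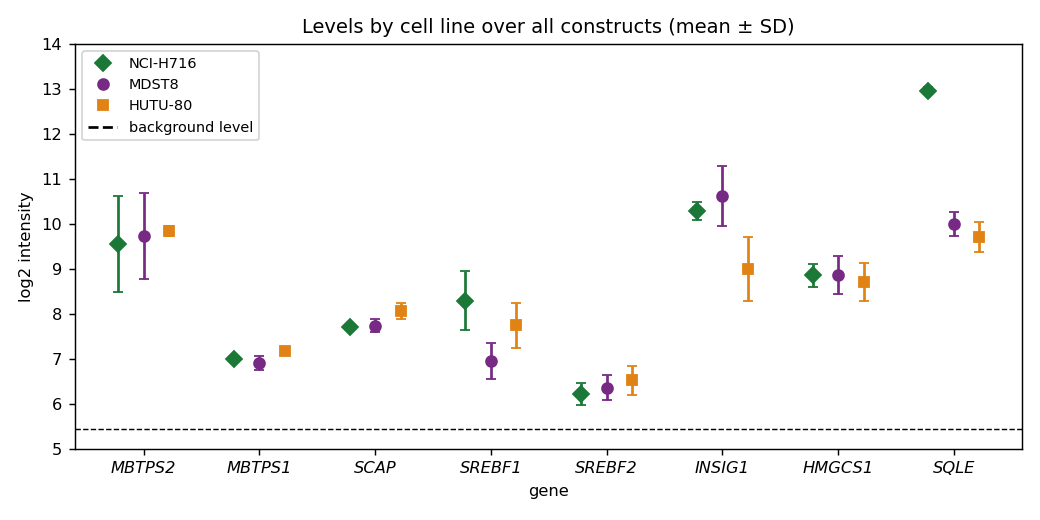
Mean log2 intensity (vertical axis) of the 8 genes in NCI-H716 (n = 4 samples), MDST8 (n = 4) and HUTU-80 (n = 3) over all constructs, with error bars of 1 SD, hidden where smaller than the symbol, and the background level dashed. SQLE in NCI-H716, at 12.96, stands apart from the other lines, and the wide bars of MBTPS2 in NCI-H716 and MDST8 come with their arrays with both clusters.

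Other genes of the pathway were taken from 7 lists of 103 measured genes, drawn from textbook knowledge and chosen with earlier results of these arrays known. With both clusters against control 13 of them fell (12.6%) and 1 rose (0.971%), beside 3.81% and 2.33% of all genes. The fall did not come from every list: it was counted among enzymes of cholesterol and fatty acid synthesis and regulators, and in 1 gene of sterol transport. The number that fell was 6 when HUTU-80 was left out, 8 when MDST8 was, and 6 when only its array with both clusters was. With no line term 0 fell, and the 14 genes called here had adjusted p of at least 0.471 in limma. With only the groups compared 0 fell as well, with adjusted p of at least 0.0550 in limma. That fit holds only 2 samples with both clusters and 3 controls, with few residual degrees of freedom, so nothing is read from the loss of calls. The wider 3′ to 5′ gap of the arrays with both clusters, given above, moved with these falls, and its part was not tested.

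Of 16 enzymes of cholesterol synthesis, 3 fell with both clusters and 0 rose, 15 had a negative fitted change, and the median was −0.47, beside 0.00 over all genes. LBR, an inner nuclear membrane protein that binds lamin B and also has sterol reductase activity, changed by −1.27 ± 0.17 (SE, limma adjusted p = 0.0029). It stood at 7.76 and 9.44 with both clusters, against 9.18 and 10.50 in the controls of MDST8 and NCI-H716. LSS, the lanosterol synthase, changed by −0.63 ± 0.12 (adjusted p = 0.0146 in limma). FDPS, the farnesyl diphosphate synthase, changed by −0.89 ± 0.22 (adjusted p = 0.0403 in limma). LBR passed in all 14 fits that left out 1 line or sample. LSS passed in 10, and its adjusted p was 0.0658 without HUTU-80, 0.0731 without NCI-H716, 0.0564 without the NCI-H716 control and 0.0691 without the MDST8 array with both clusters. FDPS passed in only 4, those without HUTU-80 miR-200ba429, NCI-H716, its control or its array with both clusters. Its change was −0.64 without MDST8 (adjusted p = 0.237 in limma) and −0.59 without the MDST8 array with both clusters (0.283). With the mean of all probe sets of a gene, LSS changed by −0.35 (adjusted p = 0.206 in limma) and FDPS by −0.61 (0.105), and FDPS was also lost with no variance trend and in a robust fit (0.0684).

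Of 16 genes of fatty acid synthesis, 4 fell and 0 rose, 15 had a negative fitted change, and the median was −0.41. SCD, the stearoyl-CoA desaturase, stood at 9.44 and 10.63 with both clusters, against 11.87 and 11.91 in the controls of MDST8 and NCI-H716. On the single-cluster arrays of those lines it stood between 11.60 and 11.93. Its change was −1.94 ± 0.24 (SE, limma adjusted p = 0.0019), and its other 4 probe sets gave changes between −3.03 and −1.48. FADS1, a fatty acid desaturase, stood at 8.53 and 7.03 with both clusters, against 10.21 and 8.23 in those controls, and its change was −1.54 ± 0.18 (adjusted p = 0.0015 in limma). FASN, the fatty acid synthase, changed by −0.98 ± 0.21 (adjusted p = 0.0234 in limma), and GPAM, which starts glycerolipid synthesis, by −0.73 ± 0.16 (adjusted p = 0.0277 in limma). SCD and FADS1 passed in all 14 fits that left out a line or sample. FASN passed in 9, and its adjusted p in limma was 0.111 without MDST8, 0.135 without its array with both clusters, 0.0546 without its control, 0.0583 without HUTU-80 and just above the threshold without the HUTU-80 control. GPAM passed in 8. Its change was −0.47 without NCI-H716 (adjusted p = 0.235 in limma), and its adjusted p was 0.122 without the NCI-H716 array with both clusters, 0.116 without the NCI-H716 control, 0.0990 without HUTU-80, 0.0533 without the HUTU-80 control and 0.0552 without HUTU-80 miR-200c141. With the mean of all probe sets of a gene FASN changed by −0.50 (adjusted p = 0.113 in limma), and its call was also lost with no variance trend (0.0503).

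**Figure D5:**
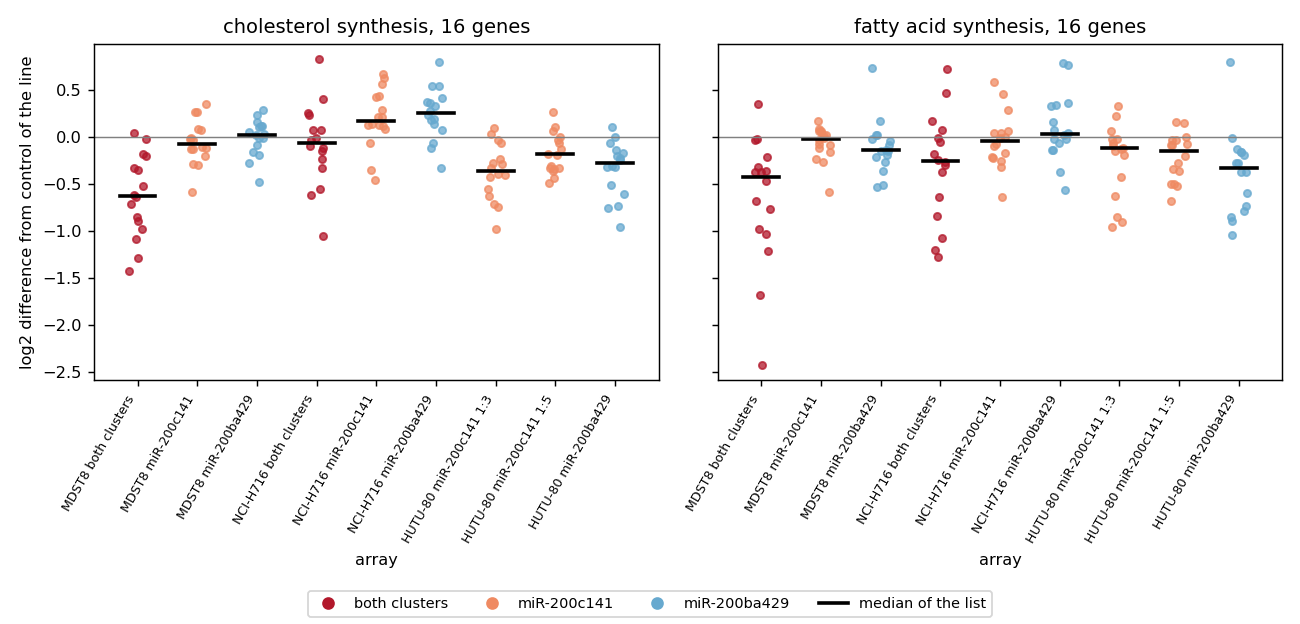
Log2 difference from the control of the line (vertical axis) for each of 16 cholesterol synthesis genes (left) and 16 fatty acid synthesis genes (right) on the 9 construct arrays (horizontal axis), with the median of the list as a black bar. The cholesterol median is −0.63 in MDST8 and −0.06 in NCI-H716 with both clusters, and 0.17 and 0.26 in NCI-H716 with miR-200c141 and miR-200ba429.

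By array, the median of the cholesterol list was −0.63 in MDST8 with both clusters, with 15 of 16 genes lower, and −0.06 in NCI-H716 with both clusters, with 10 lower. In NCI-H716 it was 0.17 with miR-200c141 and 0.26 with miR-200ba429, with 3 of 16 lower on each. In MDST8 the single clusters gave −0.07 with miR-200c141 and 0.02 with miR-200ba429, with 11 and 7 of 16 lower. In HUTU-80 it was −0.36 and −0.18 with miR-200c141 and −0.28 with miR-200ba429, with 14, 12 and 14 lower. The fatty acid list had a median of −0.42 in MDST8 and −0.25 in NCI-H716 with both clusters, with 15 and 12 of 16 lower. The medians of all genes on these arrays lay between −0.02 and 0.01. The control array is shared within a line, so medians of a line move together with it.

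Of 13 genes of sterol uptake and transport, 1 fell with both clusters and 0 rose, with a median of −0.12. NPC1, which exports cholesterol out of lysosomes, stood at 7.63 and 6.87 with both clusters, against 9.39 and 7.48 in the controls of MDST8 and NCI-H716. Its change was −1.17 ± 0.21 (SE, limma adjusted p = 0.0116), and the call was lost without HUTU-80 (0.0629), without MDST8 (−0.74, 0.0757) and without its array with both clusters alone (0.0953). With the mean of its probe sets NPC1 changed by −0.57 (adjusted p = 0.0909 in limma).

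Of 22 regulators around SCAP, the INSIGs, HMG-CoA reductase and nuclear SREBP, 5 fell and 0 rose, with a median of −0.05. MARCHF6, a ubiquitin ligase of the endoplasmic reticulum that is known to degrade squalene epoxidase, changed by −0.68 ± 0.09 (SE, limma adjusted p = 0.0033) and passed in all 14 fits that left out a line or sample. RNF139, another such ligase, changed by −0.92 ± 0.15 (adjusted p = 0.0075 in limma) and lost its call only without the MDST8 array with both clusters (0.0588). SIRT1, a deacetylase, changed by −0.92 ± 0.21 (adjusted p = 0.0295 in limma), RNF145, a ligase that acts on SCAP, by −0.62 ± 0.15 (0.0339) and NFYB, a subunit of NF-Y, by −0.58 ± 0.14 (0.0363). These 3 passed in 6, 6 and 5 of the 14 fits. Without the MDST8 array with both clusters SIRT1 changed by −0.48 (adjusted p = 0.216 in limma), RNF145 by −0.72 (0.0831) and NFYB by −0.46 (0.204). Without MDST8 SIRT1 changed by −0.56 (0.116). The SIRT1 call was also lost without HUTU-80, any of its 3 samples, or the control of MDST8 or NCI-H716. RNF145 changed by −0.46 without NCI-H716 (0.204), and its call was also lost without MDST8, its control or its miR-200c141 array, and without the NCI-H716 control, miR-200ba429 or both-cluster array. The NFYB call was also lost without each of the 3 lines, each of the 3 HUTU-80 samples, and the NCI-H716 control or miR-200ba429 array. With the mean of all probe sets of a gene MARCHF6 changed by −0.36 (adjusted p = 0.184 in limma), RNF145 by −0.33 (0.261) and NFYB by −0.33 (0.231). With no variance trend the calls of SIRT1 (0.0624), RNF145 (0.0997) and NFYB (0.0631) were lost.

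Other proteins cut by the same proteases, and genes of the neighbouring stress pathway, showed few calls. Of 8 genes for other substrates of the site proteases, 0 fell and 1 rose, with a median of 0.18. That gene, CREB3, a membrane-bound transcription factor, changed by 0.55 ± 0.15 (SE, limma adjusted p = 0.0495). The CREB3 call was lost in all 14 fits that left out a line or sample, with adjusted p up to 0.230, reached without NCI-H716. Of 17 genes of ATF6 signalling and endoplasmic reticulum chaperones, 0 passed, with a median of 0.05. SDF2L1 had the smallest p among them, with a change of 0.44 ± 0.12 (adjusted p = 0.0594 in limma), followed by CRELD2 at 0.38 ± 0.11 (0.0671). Of 11 genes around the oxysterol receptor LXR and cholesterol efflux, 0 passed, with a median of −0.03. ABCA1, which loads cholesterol onto lipoproteins, stood at −0.83 ± 0.38 (adjusted p = 0.226 in limma) and NR1H3, the receptor LXR-alpha, at 0.47 ± 0.26 (0.332).

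In both against single clusters 7 of the 103 list genes fell and 0 rose, beside 1.39% and 0.273% of all genes. They were SCD (−1.66, limma adjusted p = 0.0049), FADS1 (−0.96, 0.0186) and FASN (−0.88, 0.0465) of fatty acid synthesis, LBR (−1.19, 0.0047) and LSS (−0.62, 0.0229) of cholesterol synthesis, and the regulators MARCHF6 (−0.42, 0.0382) and SIRT1 (−0.89, 0.0452). LBR and SCD passed in all 14 fits that left out a line or sample, FADS1 in 10, LSS in 7, FASN in 5, SIRT1 in 2 (without NCI-H716 or its array with both clusters) and MARCHF6 in 1 (without that array). Without MDST8 SCD changed by −1.03, FADS1 by −0.64 (adjusted p = 0.174 in limma), SIRT1 by −0.42 (0.329) and MARCHF6 by −0.28 (0.270). Without the MDST8 array with both clusters SCD changed by −1.06, FADS1 by −0.68 (adjusted p = 0.183 in limma), LSS by −0.62 (0.132), FASN by −0.75 (0.279) and SIRT1 by −0.46 (0.353). The FADS1, LSS and FASN calls were also lost without MDST8 miR-200c141 or NCI-H716 miR-200ba429, those of LSS and FASN without MDST8, NCI-H716 or MDST8 miR-200ba429, that of LSS without HUTU-80, and that of FASN without HUTU-80 miR-200c141, NCI-H716 miR-200c141 or the MDST8 control. With the mean of all probe sets of a gene FASN changed by −0.50 (adjusted p = 0.147 in limma), LSS by −0.41 (0.182), MARCHF6 by −0.25 (0.401) and SIRT1 by −0.89 (0.0758). With no variance trend only LBR and SCD of the 7 passed. The number of list genes that fell was 16 without the NCI-H716 array with both clusters and 2 without the MDST8 one. It was 4 without HUTU-80, 2 without MDST8, 4 without HUTU-80 miR-200c141, 2 without MDST8 miR-200c141, 3 without MDST8 miR-200ba429 and 2 without NCI-H716 miR-200ba429. In the lists with 0 calls the smallest p belonged to NPC1 at −0.75 ± 0.19 (adjusted p = 0.0832 in limma) and TMEM97, which binds NPC1, at −0.72 ± 0.20 (0.104), CREB3 at 0.38 ± 0.13 (0.187) and CREB3L3 at 0.28 ± 0.10 (0.223). In the other 2 lists they were DDIT3 at 0.73 ± 0.23 (adjusted p = 0.151 in limma) and CALR at 0.20 ± 0.08 (0.243), and NR1H3 at 0.51 ± 0.23 (0.313) and ABCG4 at −0.36 ± 0.18 (0.349).

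With single clusters or any construct against control, 0 of the 103 list genes passed. With miR-200c141 the 2 of each list with the smallest p were FADS1 (−0.68 ± 0.16) and ACLY (−0.12 ± 0.07), MARCHF6 (−0.36 ± 0.08) and RNF139 (−0.41 ± 0.13), EBP (0.38 ± 0.14) and PMVK (−0.31 ± 0.14), and NPC2 (0.42 ± 0.14) and NPC1 (−0.52 ± 0.18). For the other lists they were ATF6 (−0.41 ± 0.19) and GNPTAB (0.28 ± 0.21), SDF2L1 (0.28 ± 0.11) and CRELD2 (0.24 ± 0.10), and ABCA1 (−0.66 ± 0.33) and LPCAT3 (0.37 ± 0.21). The smallest adjusted p among these was 0.305, for MARCHF6 in limma. With miR-200ba429 they were FADS1 (−0.47 ± 0.16) and MID1IP1 (−0.44 ± 0.20), MARCHF6 (−0.18 ± 0.08) and NFYA (0.22 ± 0.11), FDPS (−0.27 ± 0.19) and SC5D (0.21 ± 0.15), and SOAT1 (0.35 ± 0.14) and NPC1 (−0.33 ± 0.18). For the other lists they were ATF6 (−0.50 ± 0.19) and CREB3 (0.20 ± 0.13), CRELD2 (0.24 ± 0.10) and SDF2L1 (0.22 ± 0.11), and SMPDL3A (0.47 ± 0.19) and ABCA1 (−0.60 ± 0.33), with the smallest adjusted p at 0.789 in limma. The 2 comparisons share the control arrays.

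With any construct the smallest p of the lists belonged to FADS1 (−0.80 ± 0.26) and ACLY (−0.18 ± 0.08), MARCHF6 (−0.36 ± 0.12) and RNF139 (−0.46 ± 0.18), PMVK (−0.30 ± 0.14) and FDPS (−0.38 ± 0.22), and NPC2 (0.37 ± 0.14) and NPC1 (−0.60 ± 0.23). They were followed by ATF6 (−0.45 ± 0.16) and CREB3 (0.26 ± 0.13), CRELD2 (0.27 ± 0.08) and SDF2L1 (0.29 ± 0.10), and ABCA1 (−0.67 ± 0.26) and LPCAT3 (0.26 ± 0.19). The smallest adjusted p was 0.492 in limma.

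Likeness to a member was measured as the Pearson correlation over the 12 arrays after subtracting the mean of each line, among 9371 other genes above background on at least 6 arrays, and is a description. The genes most like MBTPS2 were ACOT7 (r = 0.99), FAM168B (0.99), CEP41 (0.99), YWHAG (0.99) and TMA16 (0.98), and the most opposed were CLIP4 (−0.98), KIF3B (−0.98), TMEM59 (−0.96), ENTPD4 (−0.96) and PIGP (−0.96). Without the 2 arrays with both clusters, which lie farthest from the median, r was between 0.93 and 0.96 for the first 5 and between −0.92 and −0.80 for the others. The subtracted line means still took in those 2 arrays, so these r are not free of them and do not show likeness among the remaining arrays. ACOT7, an acyl-CoA thioesterase, differed from control by −1.45 in MDST8 and −1.80 in NCI-H716 with both clusters. None of these 10 genes is on the pathway lists.

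The genes most like HMGCS1 were INSIG1 (r = 0.94), THOC2 (0.92), MSMO1 (0.92), IDI1 (0.91) and HSD17B7 (0.91), of which MSMO1, IDI1 and HSD17B7 are enzymes of cholesterol synthesis. The most opposed were APMAP (−0.95), NDUFAF8 (−0.95), PODXL (−0.93), FBXO25 (−0.93) and RFNG (−0.92). With the 2 arrays farthest from the median left out, MDST8 with both clusters and the NCI-H716 control, r lay between 0.83 and 0.94 for the first 5. Here too the line means had been taken with the arrays later left out. HMGCS1 and SQLE correlated at 0.91 and INSIG1 and SQLE at 0.90. MBTPS2 correlated less with these sterol genes, at 0.47 with INSIG1, 0.34 with HMGCS1 and 0.52 with SQLE. These were 0.02, −0.11 and 0.23 without the 2 arrays with both clusters, again with line means that included them. With SREBF2 and SREBF1 MBTPS2 correlated at 0.76 and 0.73, and at 0.60 and 0.31 without those arrays. With MBTPS1 and SCAP its r was −0.56 and −0.43 over the 12 arrays. The arrays share controls within a line, and a few points fix each r.

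Promoters are shown for the 3 members whose 250 bases before the transcript start hold the NF-Y box CCAAT, the partner site of SREBPs. They are from RefSeq, build GRCh38.p14, 5′ to 3′ on the strand of the gene. Capitals mark the box, which in all 3 is read on the other strand (ATTGG), and in SREBF2 the sterol regulatory element core TCACCCCAC.
SREBF2: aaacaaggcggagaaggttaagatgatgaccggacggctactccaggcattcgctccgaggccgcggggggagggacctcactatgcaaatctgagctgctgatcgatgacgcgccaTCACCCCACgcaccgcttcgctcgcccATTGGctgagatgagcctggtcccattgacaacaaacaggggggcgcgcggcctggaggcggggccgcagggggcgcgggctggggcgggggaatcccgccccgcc
INSIG1: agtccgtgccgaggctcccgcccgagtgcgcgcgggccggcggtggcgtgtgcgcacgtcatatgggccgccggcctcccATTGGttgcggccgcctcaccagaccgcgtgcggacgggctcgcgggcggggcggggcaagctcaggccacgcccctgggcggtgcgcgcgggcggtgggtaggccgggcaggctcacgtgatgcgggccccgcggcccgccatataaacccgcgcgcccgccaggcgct
HMGCS1: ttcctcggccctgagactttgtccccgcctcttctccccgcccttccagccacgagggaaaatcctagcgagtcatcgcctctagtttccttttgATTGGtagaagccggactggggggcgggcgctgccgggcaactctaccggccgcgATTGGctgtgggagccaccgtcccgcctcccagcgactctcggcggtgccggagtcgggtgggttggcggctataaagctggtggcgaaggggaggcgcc
The windows are chr22:41832855-41833104 (plus strand) for SREBF2, chr7:155297628-155297877 (plus strand) for INSIG1 and chr5:43313413-43313662 (minus strand) for HMGCS1. In SREBF2 the core begins 133 bases and the box 106 bases before the start. The box begins 170 bases before the start of INSIG1 and 155 and 100 bases before that of HMGCS1. Both strands of windows of 250 bases before to 50 after the start were searched in 35116 promoters. TCACCCCAC was found in 151 (0.43%) and in 1 of 7 member promoters, that of SREBF2, and the shorter CACCCCAC, which it contains, in 981 (2.79%) and in the same 1 of 7. Each of these cores was found in 0 of 15 promoters of the cholesterol list and in 1 of 14 of the fatty acid list. CCAAT was found in 12155 (34.6%), in 3 of 7 member promoters, in 11 of 15 of the cholesterol list and in 7 of 14 of the fatty acid list. The E-box CACGTG, a further SREBP site, was found in 2548 (7.26%) and in 2 of 7 member promoters, SCAP and INSIG1. It was found in 2 of 15 promoters of the cholesterol list and in 1 of 14 of the fatty acid list. A match of letters is a description and not a shown site.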

How the data were processed

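Per the labels, biotin-labelled total RNA was hybridised to Affymetrix U133 Plus arrays. The deposited tables hold log2 intensities, which the authors obtained per probe set with RMA, as the submitters' processing notes name it. RMA corrects background, quantile normalizes and summarises probes, so a shift shared by most genes would be removed. Which software ran it is not given in the sources. Suffixes of the probe sets mark an array that carries only perfect-match probes. Array medians lay between 3.60 and 3.66, and the number of arrays limits the precision.

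Probe sets naming 1 gene (40920) were kept, 864 naming several were left out, and each of 19774 genes was represented by its probe set of highest mean. Groups came from the sample titles. limma 3.58.1 in R 4.3.3 fitted construct group and cell line, with a variance trend, two-sided tests, Benjamini-Hochberg adjustment over all genes and a threshold of 0.05. Residual degrees of freedom of the main fits were 5, or 7 for any construct, and fewer in fits with only the groups compared. The same model was fitted to every probe set. The line term is the block that pairs the samples, since arrays of the same line share its cells. Across genes, no 2 arrays of a line correlated below 0.978, and none of different lines above 0.885. The fits were tested on simulated data. Figures were drawn with matplotlib 3.10.9.

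The members and lists were chosen with earlier results of these data known. Named are the members, every list gene past the threshold, the 2 of smallest p in a list where none passed, and the 5 genes at each end of the rank of likeness to MBTPS2 and HMGCS1. Alternatives were the mean of all probe sets, a filter on dim probe sets, no variance trend, a robust fit, arrays centred on their medians, the HUTU-80 pair as 2 samples, no line term, only the groups compared, and leaving out each line or sample. Microarray genes were named from the platform annotation, and 40864 probe sets matched the RefSeq genes by Entrez number, with 0 symbols changed.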

Additional observations from a re-analysis of the deposited data

How the results depend on the processing

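MBTPS2 kept its direction in all settings tried, with both clusters between −2.27 and −0.84 against control. The smallest of these is the mean with its 2 probe sets below background, which also gave −0.72 against single clusters, where the main value was −1.80. Under that setting SREBF1 gave −0.56 against single clusters, and SREBF2 gave −0.44 with both clusters and −0.15 with miR-200c141, each against control.

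With no block for the line, the pairing of samples is lost: 0 members and 0 list genes passed with both clusters, in either comparison. MBTPS2 then stood at −1.71 against single clusters, MBTPS1 at 0.05 against control, SCAP at −0.04 and 0.08, and SQLE at 0.21 and 0.37.

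The number of list genes that fell with both clusters against control (13) was 7 with the mean of all probe sets, 8 with no trend and 0 with only the groups compared. The number that rose (1) was 5 with the filter on dim probe sets, 3 with the HUTU-80 pair as 2 samples, and 0 with no trend, with centred arrays or with only the groups compared. The number that fell against single clusters (7) was 3 with the mean, 2 with no trend and 11 with the HUTU-80 pair as 2 samples. Members past the threshold (2 in each comparison) numbered 1 against control with only the groups compared, and against single clusters 0 with the mean, 1 with no trend and 1 with only the groups compared. SCAP against control was 0.06 with centred arrays, 0.08 with the HUTU-80 pair as 2 samples and 0.13 with only the groups compared.

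Leaving out each line or sample gave, against control, 6 to 19 list genes that fell, 0 to 2 that rose and 2 to 3 members, and against single clusters 2 to 16 (4 without HUTU-80), 0 to 1 and 1 to 2. Between lines 2 to 5 members passed. The counts of members and list genes in this section stand without the share of all genes called under each setting. Nothing about the members or lists is therefore read from them. The cause of each shift was not tested.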
